A study of Mus musculus with 2 samples.

Results

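The 29 genes described here make cholesterol, sense it, move it inside the cell, export it or store it. They were chosen by name from the 30905 genes listed in each library: 8 enzymes of the mevalonate pathway, 11 enzymes that turn farnesyl diphosphate into cholesterol, 5 regulators of sterol-responsive transcription, 3 genes of efflux and storage, and 2 genes of transport between membranes. They were measured in 2 single-cell RNA-seq libraries (10x 3′ version 3) of B cells sorted as germinal center cells from the spleens of 8-week-old C57BL/6J mice that had been immunized with SRBC (sheep red blood cells). Both libraries share strain, age, tissue and immunization, and there is no untreated or mutant group. Comparisons were therefore made between classes of cells within the libraries. The light zone (LZ) class took cells in which Cd83 or Cd86 was detected (1 UMI or more) and Cxcr4 was not, and the dark zone (DZ) class took those with Cxcr4 and neither of the other genes. IgG and IgM cells were called from heavy-chain UMIs, Myc+ and Myc- cells from Myc UMIs within the LZ class, and G1-like, S-like and G2/M-like cells from cell cycle gene scores.

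Cells make cholesterol from acetyl-CoA through mevalonate and the isoprenoid farnesyl diphosphate, which is then joined into squalene and converted through lanosterol into cholesterol. When sterol in the endoplasmic reticulum is low, SCAP carries SREBP2 to the Golgi for cleavage and the released fragment raises transcription of the synthesis enzymes, whereas INSIG proteins hold SCAP back when sterol is plentiful. Excess cholesterol is exported by ABCA1 and ABCG1, which are induced by LXR, or esterified for storage by SOAT1. In germinal centers B cells divide and mutate their antigen receptors in the dark zone and are selected by antigen and T cell help in the light zone, where some of them express Myc.

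Library 1 held 8765 barcodes with 75121538 UMIs and library 2 held 7868 barcodes with 61874342 UMIs. Barcodes with 500 or more genes, 1000 or more UMIs and no more than 20% of UMIs from mitochondrial genes were kept, which left 5142 cells (58.7%) in library 1 and 3526 (44.8%) in library 2, with medians of 8183.5 and 8243 UMIs per cell. The libraries shared 22 barcodes, of which 9 were among the kept cells of both. The B cell gene Cd79a had a UMI in 99.3% and 99.2% of the kept cells, while the platelet markers Pf4 and Ppbp were at 0. Classes were compared within each library, so p-values here set a difference between classes against counting error and its variation between these 2 libraries. With 2 libraries that variation is estimated with the help of all tested genes. A gene can therefore pass although its own difference varied widely between the libraries. Whether the libraries are from separate animals is not stated in the labels, so that variation may be technical. All levels are CPM, the UMIs of a gene per 1000000 UMIs of the summed cells of 1 class in 1 library, and n is 2 libraries throughout. A summed level cannot tell fewer cells that express a gene from less RNA in each of them.

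All 29 genes were detected in both libraries. Over all kept cells the mevalonate genes had between 17.0 CPM (Mvd, library 1) and 187 CPM (Fdps, library 2), and the later enzymes between 2.76 CPM (Tm7sf2, library 2) and 88.1 CPM (Cyp51, library 2). The regulators lay between 16.8 CPM (Scap, library 1) and 132 CPM (Srebf2, library 1). Among efflux, storage and transport genes, Abcg1 had 93 and 50 UMIs in all kept cells of libraries 1 and 2, Abca1 373 and 202, and Npc1 402 and 282, while Soat1 had 1148 and 684 and Stard4 2175 and 1436. Summed over the 19 enzymes, synthesis genes had 822 CPM in library 1 and 952 CPM in library 2. Abca1, Abcg1 and Soat1 together had 27.4 and 22.7 CPM.

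The widest contrast between synthesis and efflux genes lay along the cell cycle. Relative to G1-like cells, G2/M-like cells had higher levels of 14 of the 19 synthesis enzymes and lower levels of all 3 efflux and storage genes, and S-like cells had higher levels of 9 enzymes and lower levels of the same 3 genes. Of all genes tested, 54.5% passed in G2/M-like and 56.5% in S-like cells. Summed synthesis genes had 647 and 743 CPM in G1-like cells of libraries 1 and 2, 794 and 926 CPM in S-like cells, and 877 and 1014 CPM in G2/M-like cells. Summed efflux and storage genes had 56.0 and 49.7 CPM in G1-like cells, 24.8 and 19.6 CPM in S-like cells, and 23.4 and 19.3 CPM in G2/M-like cells. The 2 sums thus ran in opposite directions in both libraries. The log2 ratio of G2/M-like to G1-like cells was 0.44 for the synthesis sum and -1.31 for the efflux and storage sum, a difference of 1.76 ± 0.08 (SD over 2 libraries). For S-like against G1-like cells the difference was 1.57 ± 0.13.

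**Figure D1:**
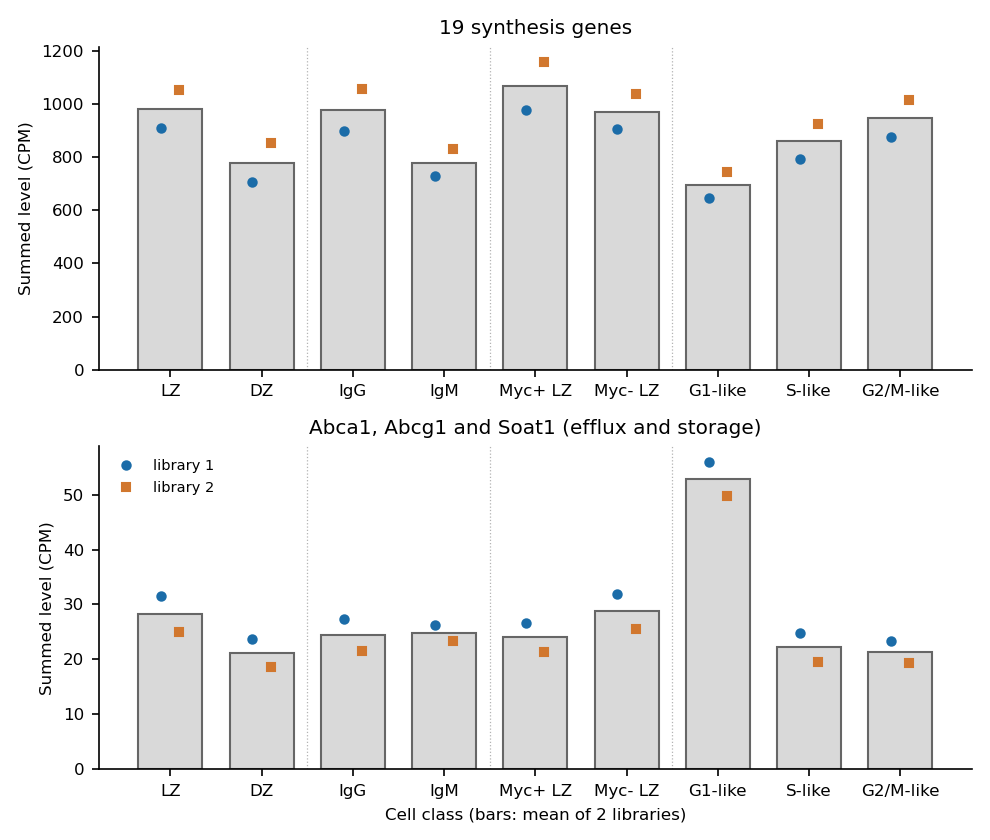
Summed CPM (vertical axes) of the 19 synthesis genes (top) and of Abca1, Abcg1 and Soat1 (bottom) in each cell class, with bars at the mean of 2 libraries and a point for each library. Synthesis genes are lowest in G1-like cells (647 and 743 CPM), where efflux and storage genes are highest (56.0 and 49.7 CPM).

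Counted per cell rather than as a share of all UMIs, the efflux and storage genes did not follow their CPM. They had 0.359 and 0.346 UMIs per G1-like cell in libraries 1 and 2, 0.321 and 0.262 per S-like cell, and 0.329 and 0.277 per G2/M-like cell. Synthesis genes had 4.15 and 5.17 UMIs per G1-like cell, 10.3 and 12.4 per S-like cell, and 12.3 and 14.5 per G2/M-like cell. Median depth differed in the same order, with 5346.5 and 5590 UMIs in G1-like cells, 9467 and 9762 in S-like cells, and 10535 and 10439 in G2/M-like cells. The lower CPM of the efflux and storage genes outside G1-like cells thus stood beside a larger UMI total per cell.

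Of the 29 genes, 16 were higher and 7 lower in G2/M-like than in G1-like cells by edgeR's quasi-likelihood test with library as a block (Benjamini-Hochberg adjusted p below 0.05 over all tested genes). Of all 10966 genes tested, 28.0% were higher and 26.5% lower. In S-like against G1-like cells 12 were higher and 7 lower, where 3083 of 10646 genes were higher and 2927 lower. The median log2 fold change of the 29 genes was 0.29 in G2/M-like and 0.11 in S-like cells, against -0.01 and -0.02 over all tested genes. Both comparisons use the same G1-like cells. Without the library block, 17 and 15 of the 29 genes were called instead of 23 and 19, and DESeq2 called 14 and 10.

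Within the mevalonate pathway, Idi1, Fdps and Acat2 had the largest increases in both cycling classes. Idi1, which makes dimethylallyl diphosphate from isopentenyl diphosphate, had 35.0 and 48.8 CPM in G1-like cells, 76.1 and 100 CPM in S-like cells, and 72.8 and 91.4 CPM in G2/M-like cells. It was thus low only in the G1-like class, with log2 fold changes of 1.14 ± 0.09 (SE, adjusted p = 5.33e-32, edgeR) in S-like and 1.03 ± 0.09 (adjusted p = 4.07e-30, edgeR) in G2/M-like cells. Fdps, farnesyl diphosphate synthase, had 96.5 and 117 CPM in G1-like cells, 156 and 195 CPM in S-like cells, and 150 and 196 CPM in G2/M-like cells. Its log2 fold changes were 0.77 ± 0.08 in S-like and 0.73 ± 0.07 in G2/M-like cells, and neither class overlapped the G1-like values. Acat2, the thiolase that makes acetoacetyl-CoA, had 20.3 and 26.5 CPM in G1-like cells, 40.2 and 43.8 CPM in S-like cells, and 33.4 and 36.6 CPM in G2/M-like cells. Its peak was in S-like cells, with log2 fold changes of 0.93 ± 0.12 in S-like and 0.65 ± 0.11 in G2/M-like cells.

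Hmgcs1 and Mvk followed another course and were raised only past S phase. Hmgcs1, the HMG-CoA synthase, had 82.6 and 85.7 CPM in G1-like cells, 76.5 and 82.6 CPM in S-like cells, and 115 and 122 CPM in G2/M-like cells. Its log2 fold change was -0.03 (95% interval -0.19 to 0.13) in S-like cells and 0.53 ± 0.07 (adjusted p = 5.13e-12, edgeR) in G2/M-like cells. Mvk, mevalonate kinase, had 15.7 and 18.4 CPM in G1-like cells, 15.4 and 18.3 CPM in S-like cells, and 23.0 and 25.8 CPM in G2/M-like cells. The G1-like and S-like values of Mvk overlapped and both lay below the G2/M-like values. Pmvk, phosphomevalonate kinase, rose modestly in both cycling classes (log2 fold changes of 0.23 in S-like and 0.24 in G2/M-like cells), and Mvd, the decarboxylase after it, passed in neither (0.05 and 0.06). The increase of Pmvk in G2/M-like cells was 0.11 in library 1 and 0.31 in library 2, and in S-like cells 0.11 and 0.26.

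Ggps1 was the exception among the enzymes. It makes geranylgeranyl diphosphate, which is attached to small GTPases and does not lead to cholesterol. It had 39.9 and 33.9 CPM in G1-like cells, 23.0 and 25.1 CPM in S-like cells, and 23.6 and 21.7 CPM in G2/M-like cells. The log2 fold changes of -0.59 ± 0.11 in S-like and -0.67 ± 0.10 in G2/M-like cells were opposite in sign to those of Fdps, whose product it uses. The gene overlaps Arid4b on the other strand in GENCODE M21, and whether the counting used strand is not given in the sources used here. Hmgcs1, Mvd, Idi1, Fdft1, Lss, Cyp51, Srebf1, Scap, Insig2, Soat1 and Npc1 also overlap genes on the other strand. Fdps, Tm7sf2, Srebf1, Srebf2 and Abcg1 overlap genes on the same strand. The part of these overlaps in the levels was not tested.

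Among the later enzymes, Sqle, the squalene epoxidase that commits carbon to sterols, had 33.1 and 38.7 CPM in G1-like cells, 46.7 and 56.5 CPM in S-like cells, and 57.7 and 64.3 CPM in G2/M-like cells. It was higher at each step, with log2 fold changes of 0.57 ± 0.10 in S-like and 0.81 ± 0.09 in G2/M-like cells over G1-like cells. Hsd17b7, a sterol ketone reductase, had 10.5 and 8.92 CPM in G1-like cells, 10.5 and 11.3 CPM in S-like cells, and 17.0 and 17.8 CPM in G2/M-like cells. Like Hmgcs1 it passed in G2/M-like cells (0.85 ± 0.16, adjusted p = 2.37e-07, edgeR) and not in S-like cells (0.20 ± 0.18). Fdft1, squalene synthase, had 14.5 and 17.8 CPM in G1-like cells, 20.4 and 22.3 CPM in S-like cells, and 22.7 and 23.6 CPM in G2/M-like cells. Lss, lanosterol synthase, had 10.9 and 11.3 CPM in G1-like cells, 15.8 and 15.0 CPM in S-like cells, and 17.6 and 16.3 CPM in G2/M-like cells. Fdft1 and Lss were thus higher in both classes, by 0.47 and 0.55 in S-like and 0.58 and 0.67 in G2/M-like cells. Cyp51 (lanosterol demethylase) and Ebp (sterol isomerase) rose by 0.33 and 0.36 in S-like and 0.35 and 0.29 in G2/M-like cells, while Msmo1 (sterol methyl oxidase) and Sc5d (sterol desaturase) rose only in G2/M-like cells, by 0.41 and 0.43. The increase of Msmo1 in G2/M-like cells was 0.53 in library 1 and 0.18 in library 2, and that of Ebp in S-like cells 0.42 and 0.19. Tm7sf2 and Dhcr7, both sterol reductases, and the dehydrogenase Nsdhl passed in neither comparison.

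**Figure D2:**
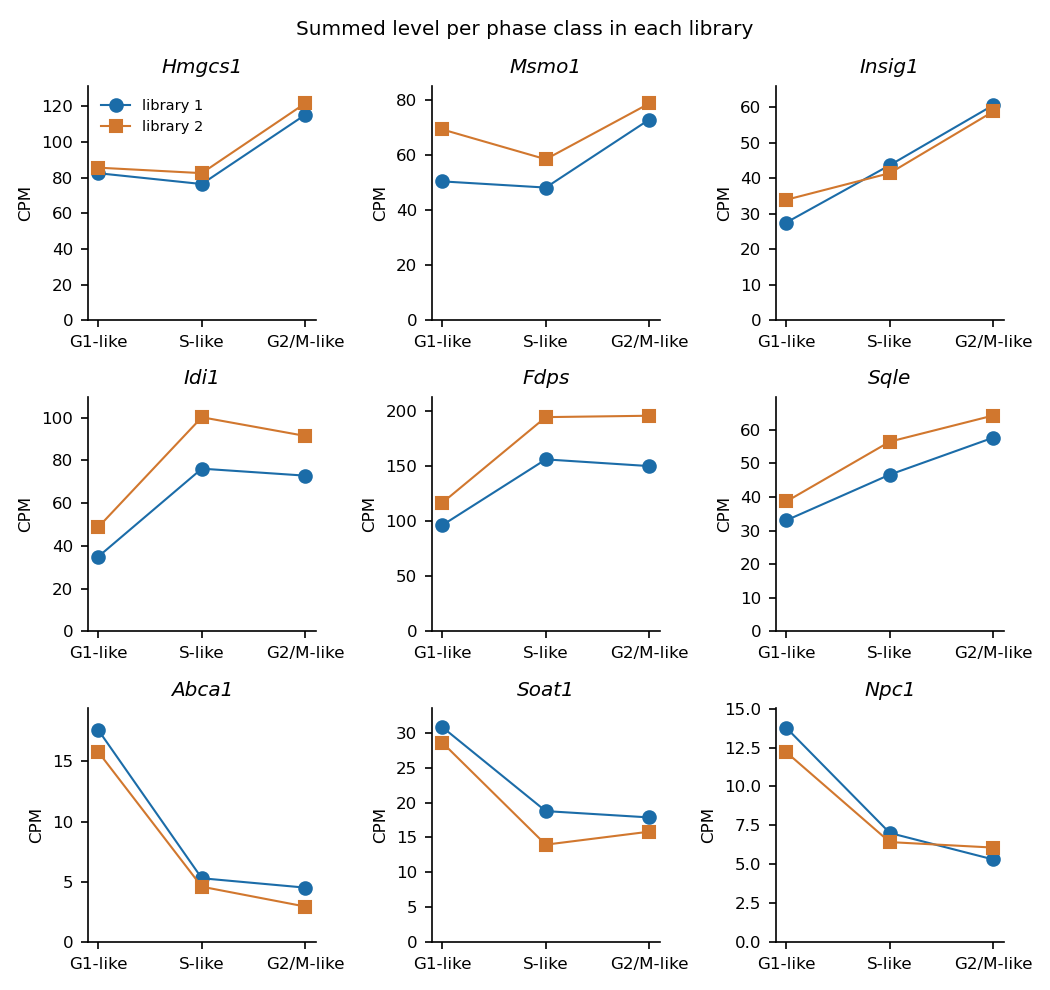
CPM (vertical axes) of 9 of the genes in G1-like, S-like and G2/M-like cells, with 1 line for each library. Hmgcs1 and Msmo1 are as low in S-like as in G1-like cells, Idi1 and Fdps are already high in S-like cells, and Abca1, Soat1 and Npc1 are highest in G1-like cells.

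Setting G2/M-like directly against S-like cells, a comparison added after the other values had been seen, restates these courses in 1 contrast and is given as a description, with no test of them. Of the 29 genes, 10 were higher and 5 lower, where 49.7% of 11308 genes passed, 24.2% higher and 25.5% lower. Hsd17b7 (0.67 ± 0.09), Hmgcs1 (0.58 ± 0.04), Mvk (0.54 ± 0.07) and Msmo1 (0.52 ± 0.04) had the largest increases among enzymes. Msmo1 had 50.5 and 69.3 CPM in G1-like cells, 48.2 and 58.5 CPM in S-like cells, and 72.9 and 78.7 CPM in G2/M-like cells. Fdps had a log2 fold change of -0.03 (95% interval -0.08 to 0.03) and Pmvk of 0.02 (-0.05 to 0.10). Acat2 was lower in G2/M-like than in S-like cells by a log2 fold change of -0.27 ± 0.06. The call of Idi1 (-0.10 ± 0.04) turned to a positive value under 3 of the alternatives, and its log2 ratios were -0.06 and -0.13 in libraries 1 and 2. The regulators Insig1 (0.48), Insig2 (0.40) and Srebf2 (0.20) were higher in G2/M-like than in S-like cells and Scap (-0.41) and Srebf1 (-0.22) lower, as was Abca1 (-0.38, with log2 ratios of -0.23 and -0.64).

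The 5 regulators did not move together. Insig1, which retains SCAP and is itself a target of SREBP, had 27.5 and 33.9 CPM in G1-like cells, 43.6 and 41.4 CPM in S-like cells, and 60.5 and 58.7 CPM in G2/M-like cells. The 3 classes did not overlap, and the log2 fold changes over G1-like cells were 0.56 ± 0.11 (adjusted p = 1.61e-06, edgeR) in S-like and 1.03 ± 0.10 (adjusted p = 5.01e-25, edgeR) in G2/M-like cells. Insig2, the paralog with the same role, had 24.1 and 20.5 CPM in G1-like cells, 14.1 and 14.4 CPM in S-like cells, and 18.1 and 19.6 CPM in G2/M-like cells. Its level was lower in S-like cells (-0.61 ± 0.14), the opposite of Insig1, and did not pass in G2/M-like cells (-0.23 ± 0.12). Srebf2, which encodes SREBP2, was lower in S-like (-0.38 ± 0.08) and G2/M-like cells (-0.19 ± 0.07), and Scap was lower in G2/M-like cells (-0.32 ± 0.13). Srebf1, which encodes the SREBP1 forms that act more on fatty acid genes, was higher in S-like cells (0.32 ± 0.12) and had 0.09 ± 0.11 in G2/M-like cells. The log2 ratio of S-like to G1-like cells was 0.06 in library 1 and 0.54 in library 2 for Srebf1, and 0.67 and 0.29 for Insig1.

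Among efflux and storage genes, Abca1, the transporter that loads cholesterol onto apolipoprotein A-I, had 17.6 and 15.8 CPM in G1-like cells, 5.31 and 4.61 CPM in S-like cells, and 4.54 and 2.97 CPM in G2/M-like cells. The G1-like values were far above the rest, with log2 fold changes of -1.68 ± 0.19 (adjusted p = 1.99e-18, edgeR) in S-like and -2.07 ± 0.18 (adjusted p = 5.17e-28, edgeR) in G2/M-like cells. Abcg1, which exports cholesterol to high-density lipoprotein, had 40 and 18 UMIs in G1-like cells (7.65 and 5.35 CPM), 15 and 15 in S-like cells (0.731 and 0.975 CPM), and 31 and 11 in G2/M-like cells (0.970 and 0.511 CPM). Its log2 fold changes were -2.92 ± 0.35 in S-like and -3.05 ± 0.34 in G2/M-like cells. Soat1, which esterifies cholesterol for storage, had 30.8 and 28.6 CPM in G1-like cells, 18.8 and 14.0 CPM in S-like cells, and 17.9 and 15.8 CPM in G2/M-like cells. Its log2 fold changes were -0.78 ± 0.12 in S-like and -0.77 ± 0.11 in G2/M-like cells.

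The 2 transport genes went apart. Npc1, which releases cholesterol from lysosomes, had 13.8 and 12.2 CPM in G1-like cells, 7.02 and 6.43 CPM in S-like cells, and 5.32 and 6.08 CPM in G2/M-like cells. It fell in S-like cells (-0.89 ± 0.19) and G2/M-like cells (-1.18 ± 0.18), and it overlaps Rmc1 on the other strand. Stard4, a carrier of cholesterol between membranes and a target of SREBP2 in the liver of mice, had 28.5 and 27.4 CPM in G1-like cells, 39.3 and 36.7 CPM in S-like cells, and 37.3 and 34.8 CPM in G2/M-like cells. Its log2 fold changes of 0.50 ± 0.11 and 0.42 ± 0.10 had the sign of the synthesis genes.

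Markers of other cells moved with these classes. Summed naive and memory B cell markers (6 genes, none at 0) had 538 and 598 CPM in G1-like cells, 168 and 172 CPM in S-like cells, and 172 and 187 CPM in G2/M-like cells. Summed macrophage markers (6 genes) had 77.2 and 24.1 CPM in G1-like cells with none at 0, 6.39 and 6.24 CPM in S-like cells with Lyz2 at 0 in library 2, and 5.73 and 6.22 CPM in G2/M-like cells with C1qa at 0 in library 1 and C1qc at 0 in library 2. Macrophages also express Abca1, Abcg1 and Npc1. Among cells that had germinal center markers and no naive or memory UMI, an alternative added after the values had been seen, the log2 fold change in G2/M-like cells was -2.08 for Abca1, -0.68 for Soat1 and -0.87 for Npc1. In S-like cells of the same gate it was -1.53 for Abca1 and -0.65 for Soat1, and Npc1 lost its call (-0.51, adjusted p = 0.0552, edgeR). The germinal center gate alone left Abcg1 at -1.95 in G2/M-like and -1.75 in S-like cells, and with the further requirement Abcg1 had too few UMIs to be tested. The phases rest on scores, and 13.9% and 12.5% of cells lay within 0.05 of a boundary between phases.

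In the comparison of zones, LZ cells had higher levels of 16 of the 29 genes than DZ cells and no lower one among those that passed. The synthesis enzymes gave 11 of the 16, the regulators Srebf2 and Insig1, efflux and storage Abca1 and Soat1, and transport Stard4. Of all 10655 genes tested, 29.4% passed, 15.5% higher and 13.9% lower. The synthesis sum was 909 and 1051 CPM in LZ cells of libraries 1 and 2, against 706 and 851 CPM in DZ cells, and the efflux and storage sum was 31.5 and 25.0 CPM in LZ cells, against 23.7 and 18.6 CPM in DZ cells. Both sums were therefore higher in LZ cells, with mean log2 ratios of 0.33 and 0.42 and a difference between them of -0.08 ± 0.05 (SD). The median log2 fold change of the 29 genes was 0.30, against -0.002 over all tested genes.

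**Figure D3:**
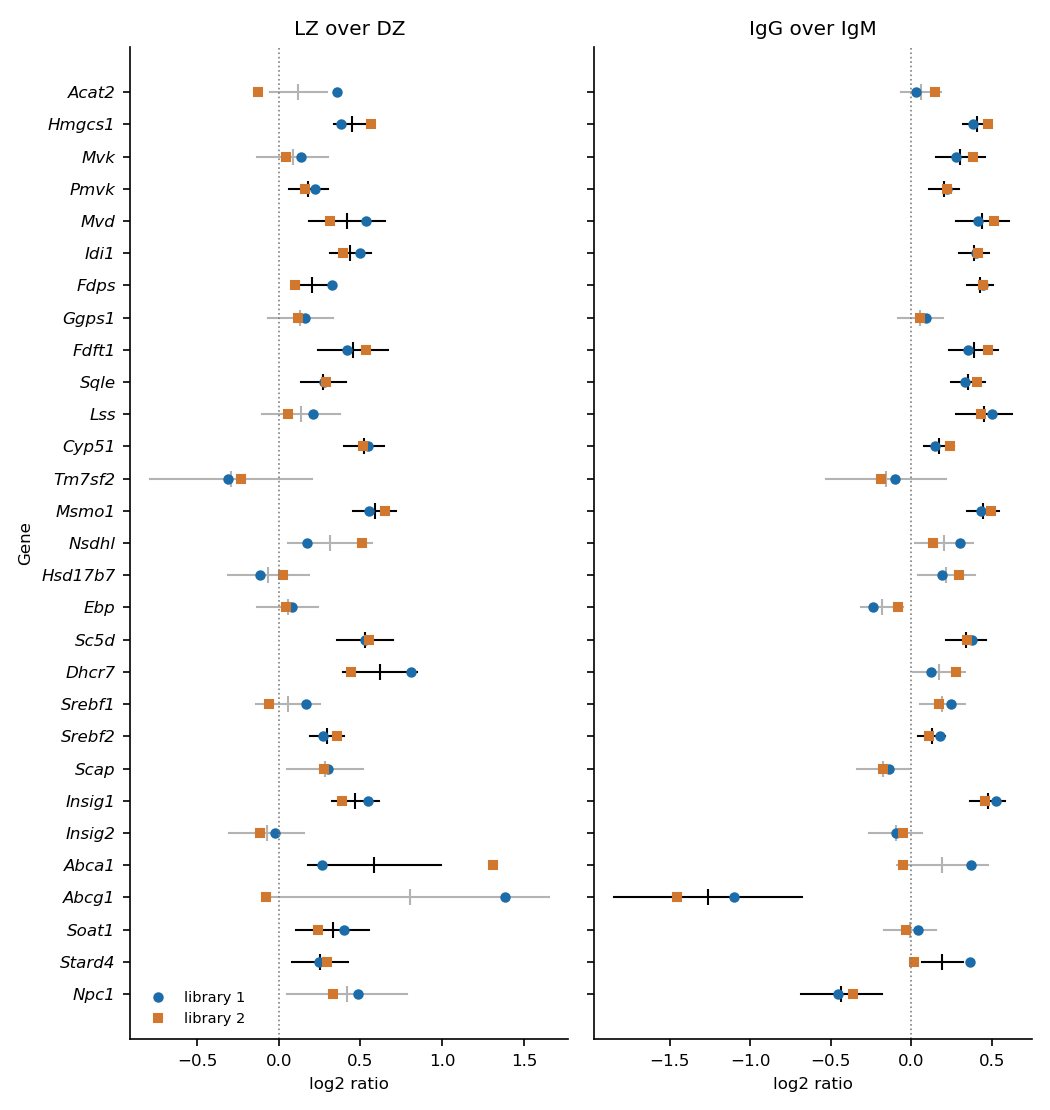
Log2 ratio (horizontal axes) of LZ over DZ cells (left) and IgG over IgM cells (right) for each of the 29 genes, with a circle for library 1 and a square for library 2. Ticks with lines are edgeR estimates with their 95% intervals, black where adjusted p was below 0.05. Most synthesis genes lie right of 0 in both panels, and Abcg1 and Npc1 lie left of 0 for IgG over IgM.

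The enzymes with the largest LZ to DZ differences act late. Msmo1 had 72.4 and 88.7 CPM in LZ cells, against 49.4 and 56.6 CPM in DZ cells, a log2 fold change of 0.59 ± 0.07 (adjusted p = 6.86e-17, edgeR). Cyp51, which acts on lanosterol upstream of it, had 96.0 and 104 CPM in LZ cells, against 65.7 and 72.7 CPM in DZ cells, a log2 fold change of 0.52 ± 0.06 (adjusted p = 8.04e-16, edgeR). The LZ values of both genes lay above all DZ values, and these were the 2 genes that also passed without the library block. Sc5d had 38.0 and 46.0 CPM in LZ cells, against 26.3 and 31.4 CPM in DZ cells (0.53 ± 0.09). Dhcr7, the reductase of the last step, had 20.9 and 25.1 CPM in LZ cells, against 11.97 and 18.5 CPM in DZ cells (0.62 ± 0.12). Fdft1 and Sqle rose by 0.45 and 0.27 on the log2 scale. Lss (0.14), Nsdhl (0.31), Ebp (0.05), Hsd17b7 (-0.06) and Tm7sf2 (-0.29) did not pass.

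In the mevalonate pathway, Hmgcs1 had 114 and 124 CPM in LZ cells, against 87.9 and 83.6 CPM in DZ cells (0.45 ± 0.06, adjusted p = 2.83e-13, edgeR). Idi1 had 74.8 and 97.6 CPM in LZ cells, against 52.9 and 74.2 CPM in DZ cells (0.44 ± 0.06, adjusted p = 1.58e-10, edgeR). For neither gene did the zones overlap, as for 23.9% of all tested genes with higher LZ values. Mvd, Fdps and Pmvk rose by 0.42, 0.20 and 0.18, and Acat2 (0.12), Mvk (0.09) and Ggps1 (0.13) did not pass. The increase of Fdps was 0.32 in library 1 and 0.10 in library 2. Acat2 and Mvk, which differed between phases, thus had log2 fold changes between zones whose 95% intervals reached no higher than 0.29 and 0.30.

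Of the regulators, Insig1 had 60.7 and 59.3 CPM in LZ cells, against 41.5 and 45.3 CPM in DZ cells (0.47 ± 0.07, adjusted p = 3.14e-09, edgeR), and Srebf2 rose by 0.30 ± 0.05. Scap had a log2 fold change of 0.28 ± 0.12 (adjusted p = 0.0563, edgeR), Srebf1 of 0.05 and Insig2 of -0.07. Abca1 had 6.84 and 6.24 CPM in LZ cells, against 5.70 and 2.52 CPM in DZ cells, where the value of library 2 came from 15 UMIs. Its log2 fold change of 0.58 ± 0.21 (adjusted p = 0.0205, edgeR) rested mostly on that library, with log2 ratios of 0.26 in library 1 and 1.31 in library 2. Soat1 and Stard4 rose by 0.33 and 0.25, and Npc1 had 0.42 ± 0.19 (adjusted p = 0.0777, edgeR). Abcg1 had the largest log2 fold change of the 29 genes, 0.80, and did not pass. The calls of Abca1 and Stard4 were each lost under 8 of 13 alternatives, that of Soat1 under 7, and those of Mvd and Pmvk under 5, and DESeq2 kept Hmgcs1, Idi1, Cyp51, Msmo1, Sc5d, Srebf2 and Insig1 of the 16.

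The zones differed in phase, with 37.2% and 38.2% G2/M-like cells in LZ, against 61.3% and 58.2% in DZ. G1-like cells made up 25.6% and 22.8% of LZ, against 12.6% and 10.8% of DZ. Within each phase the synthesis sum was higher in LZ cells in both libraries. Among G1-like cells it was 687 and 877 CPM in LZ, against 508 and 553 CPM in DZ. Among S-like cells it was 876 and 1002 CPM in LZ, against 662 and 823 CPM in DZ, and among G2/M-like cells 1008 and 1145 CPM in LZ, against 744 and 895 CPM in DZ. The efflux and storage sum among G1-like cells was 57.2 and 49.8 CPM in LZ, against 43.9 and 31.3 CPM in DZ. Among S-like cells it was 27.1 and 22.6 CPM in LZ, against 26.9 and 11.7 CPM in DZ. Among G2/M-like cells it was 27.0 and 19.5 CPM in LZ, against 20.4 and 21.1 CPM in DZ, and the libraries disagreed in sign. With LZ cells drawn down to equal phase shares, 13 of the 16 genes were still called. The calls of Abca1, Soat1 and Stard4 were lost. The difference between the log2 ratios of the synthesis sum and the efflux and storage sum turned to 0.16. Naive and memory markers summed to 292 and 319 CPM in LZ cells, against 130 and 137 CPM in DZ cells, and their part in the result was not tested. Among germinal center cells without such UMIs, 14 of the 16 genes passed.

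Promoters of 4 genes that were higher both in LZ and in IgG cells, and of Abca1, are shown because these genes are known targets of SREBP or, for Abca1, of LXR. They are RefSeq promoters on GRCm38.p6, from 250 bases before to 50 bases after the start of transcription, written 5′ to 3′ on the strand of the gene. Capitals mark matches on either strand of TCACNCCAC (a form of the sterol regulatory element), CACGTG (an E box), CCAAT (the NF-Y box) and AGGTCA repeated after a spacer of 4 bases (a DR4 form read by LXR).
Hmgcs1: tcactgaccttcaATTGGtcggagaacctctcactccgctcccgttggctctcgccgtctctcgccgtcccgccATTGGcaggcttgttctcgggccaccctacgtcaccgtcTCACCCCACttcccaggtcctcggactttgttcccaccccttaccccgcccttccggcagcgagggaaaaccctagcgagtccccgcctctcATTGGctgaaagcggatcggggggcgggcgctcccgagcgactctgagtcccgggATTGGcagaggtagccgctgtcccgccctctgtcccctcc
Idi1: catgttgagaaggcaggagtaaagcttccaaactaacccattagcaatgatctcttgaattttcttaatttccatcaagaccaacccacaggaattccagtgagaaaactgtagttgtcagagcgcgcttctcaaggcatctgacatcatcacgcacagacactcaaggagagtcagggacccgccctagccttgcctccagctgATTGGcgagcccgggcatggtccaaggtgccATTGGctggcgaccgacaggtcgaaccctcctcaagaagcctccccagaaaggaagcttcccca
Msmo1: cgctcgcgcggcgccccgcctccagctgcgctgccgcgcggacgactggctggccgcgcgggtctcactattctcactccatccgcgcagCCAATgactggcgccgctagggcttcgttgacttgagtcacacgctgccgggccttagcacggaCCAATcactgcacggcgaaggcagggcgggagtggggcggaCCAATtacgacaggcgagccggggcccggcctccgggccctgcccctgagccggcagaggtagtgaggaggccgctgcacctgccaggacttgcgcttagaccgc
Insig1: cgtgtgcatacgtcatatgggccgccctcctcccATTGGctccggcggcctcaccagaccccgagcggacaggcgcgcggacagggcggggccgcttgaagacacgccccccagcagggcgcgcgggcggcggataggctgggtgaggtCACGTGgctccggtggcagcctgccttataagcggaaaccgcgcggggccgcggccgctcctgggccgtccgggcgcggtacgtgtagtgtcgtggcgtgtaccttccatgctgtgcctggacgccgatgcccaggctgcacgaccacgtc
Abca1: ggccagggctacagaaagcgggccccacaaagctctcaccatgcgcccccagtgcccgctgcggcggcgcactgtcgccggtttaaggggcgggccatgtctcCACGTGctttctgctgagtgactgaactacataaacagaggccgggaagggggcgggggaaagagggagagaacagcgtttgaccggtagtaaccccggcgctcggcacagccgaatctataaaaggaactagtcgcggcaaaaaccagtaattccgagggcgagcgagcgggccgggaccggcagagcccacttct
The windows lie at chr13:119690101-119690400 (plus strand) for Hmgcs1, chr13:8885356-8885655 (plus strand) for Idi1, chr8:64733529-64733828 (minus strand) for Msmo1, chr5:28071162-28071461 (plus strand) for Insig1 and chr4:53159846-53160145 (minus strand) for Abca1.

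Of the 29 genes, 23 had a promoter in the RefSeq table. The sterol regulatory element form was found in 1 of them, Hmgcs1, as TCACCCCAC starting 137 bases before the start of transcription, against 1.44% of 27025 genes with a promoter. The CCAAT box was found in 20 of the 23 (87.0%), against 41.1% of all genes, and the GC box GGGCGG in 21 (91.3%), against 38.2%. The E box was found in 6 (26.1%), against 8.09% of all genes, and the DR4 form in none of the 23 and in 0.0148% of all genes. The DR4 form was searched as an exact repeat, which only 4 of 27025 genes had. Its absence therefore cannot show that a promoter, that of Abca1 included, lacks a site for LXR. Of the promoters shown, those of Hmgcs1, Idi1, Msmo1 and Insig1 hold a CCAAT box and that of Abca1 holds none. These matches describe letters in a short window and not binding.

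IgG cells had higher levels than IgM cells of 15 of the 29 genes and lower levels of 2. The 15 comprised 12 synthesis enzymes, Srebf2, Insig1 and Stard4, and the 2 lower genes were Abcg1 and Npc1. Of all 11231 genes tested, 14.0% passed, 5.87% higher and 8.17% lower. The synthesis sum was 897 and 1058 CPM in IgG cells, against 729 and 830 CPM in IgM cells, a mean log2 ratio of 0.32. The efflux and storage sum was 27.4 and 21.5 CPM in IgG cells, against 26.2 and 23.3 CPM in IgM cells, with libraries that disagreed in sign. The difference between the 2 log2 ratios was 0.35 ± 0.16 (SD).

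Of the 19 enzymes, log2 fold changes in IgG over IgM cells ran from -0.18 to 0.45. Hmgcs1 had 109 and 120 CPM in IgG cells, against 83.8 and 86.1 CPM in IgM cells (0.41 ± 0.04, adjusted p = 9e-14, edgeR). Idi1 had 79.7 and 102 CPM in IgG cells, against 60.4 and 76.2 CPM in IgM cells (0.39 ± 0.05, adjusted p = 1.46e-11, edgeR). Fdps had 165 and 214 CPM in IgG cells, against 122 and 157 CPM in IgM cells (0.42 ± 0.04, adjusted p = 4.52e-17, edgeR). For all 3 genes the IgG values lay above all IgM values, as they did for 21.1% of all tested genes. Sqle had 56.3 and 67.1 CPM in IgG cells, against 44.7 and 50.6 CPM in IgM cells (0.35 ± 0.05, adjusted p = 7.3e-08, edgeR). Msmo1 had 69.2 and 80.9 CPM in IgG cells, against 51.3 and 57.4 CPM in IgM cells (0.44 ± 0.05, adjusted p = 7.51e-13, edgeR). Sqle and Msmo1 did not overlap between the classes either. Mvd, Lss, Fdft1, Sc5d, Mvk, Pmvk and Cyp51 rose by 0.44, 0.45, 0.39, 0.34, 0.30, 0.20 and 0.17 on the log2 scale. The enzymes that did not pass were Acat2 (0.06), Ggps1 (0.05), Tm7sf2 (-0.16), Nsdhl (0.20), Hsd17b7 (0.22), Ebp (-0.18) and Dhcr7 (0.17).

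Insig1 had 59.6 and 57.8 CPM in IgG cells, against 41.4 and 42.2 CPM in IgM cells, the largest increase among the 29 genes at 0.47 ± 0.06 (adjusted p = 2.41e-12, edgeR). Srebf2 rose by 0.13 ± 0.04, while Srebf1 (0.19), Scap (-0.18) and Insig2 (-0.10) did not pass. Stard4 rose by 0.19 ± 0.06, with log2 ratios of 0.36 in library 1 and 0.02 in library 2. Abcg1 had 21 and 13 UMIs in IgG cells (0.834 and 0.742 CPM), against 37 and 32 UMIs in IgM cells (1.79 and 2.04 CPM), a log2 fold change of -1.26 ± 0.30 (adjusted p = 0.000702, edgeR). Npc1 had 5.80 and 6.11 CPM in IgG cells, against 7.97 and 7.84 CPM in IgM cells (-0.44 ± 0.13, adjusted p = 0.00975, edgeR). Abca1 (0.19 ± 0.14) and Soat1 (-0.01 ± 0.08) did not pass. The Abcg1 difference lost its call within the germinal center gate (-0.88, adjusted p = 0.148, edgeR).

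Naive and memory markers summed to 153 and 155 CPM in IgG cells, against 266 and 287 CPM in IgM cells. Among germinal center cells without such UMIs, 12 of the 17 calls held, all of them among genes higher in IgG cells, and within LZ cells alone 12 of the 17 held. No member passed without the library block, and DESeq2 kept Hmgcs1, Idi1, Fdps, Sqle, Msmo1 and Insig1. Within each phase the synthesis sum was higher in IgG cells, with 747 and 825 CPM, against 546 and 712 CPM in IgM cells, among G1-like cells. Among S-like cells it was 846 and 1019 CPM in IgG, against 734 and 816 CPM in IgM, and among G2/M-like cells 957 and 1129 CPM in IgG, against 764 and 868 CPM in IgM. By subclass, IgG1 cells had 894 and 1061 CPM and IgG2b cells 836 and 1011 CPM, both above IgM cells in each library. IgG2c and IgG3 were too rare to compare, with 59 to 554 synthesis UMIs per library.

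**Figure D4:**
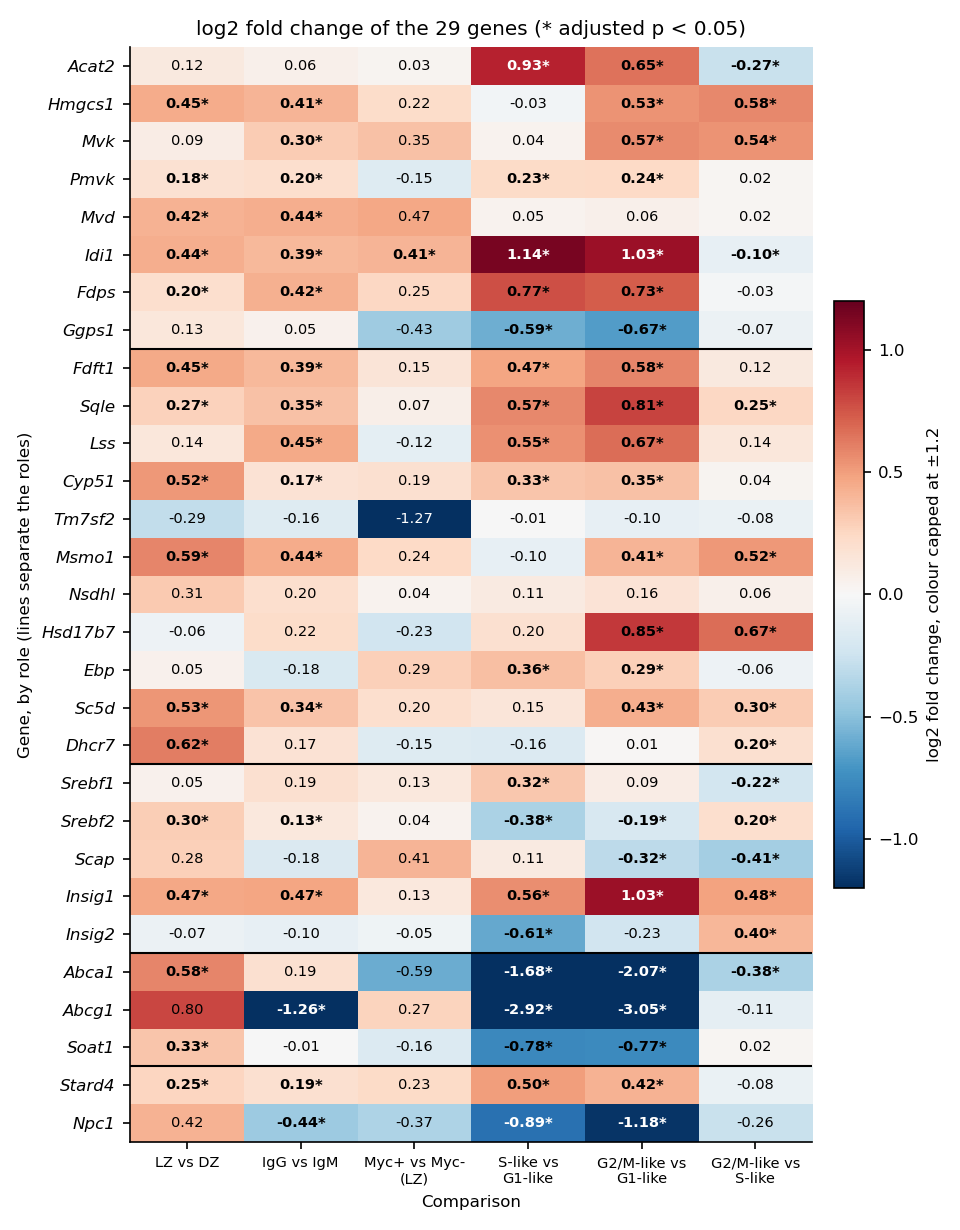
Log2 fold changes (numbers and colour) of the 29 genes (rows, grouped by role) in 6 comparisons (columns), with an asterisk where adjusted p was below 0.05. Insig1 and Idi1 are positive and called in the LZ, IgG, S-like and G2/M-like against G1-like columns, and Abca1, Abcg1, Soat1 and Npc1 are lower in the S-like and G2/M-like classes than in the G1-like class.

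Whether the zone difference depended on isotype was tested with an interaction term over the 4 zone by isotype classes. Of the 28 genes tested (Abcg1 was too low) none passed, none had an unadjusted p below 0.05, and DESeq2 also called none, while 0.0200% of 10017 genes passed and 799 had an unadjusted p below 0.05. The interaction estimates ran from -0.44 to 0.46 with a median SE of 0.21. Msmo1 had an LZ over DZ log2 fold change of 0.51 in IgG and 0.73 in IgM cells, a difference of -0.21 (95% interval -0.49 to 0.07). Soat1 had 0.53 in IgG and 0.07 in IgM cells, a difference of 0.46 (-0.01 to 0.93).

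Within LZ cells, Myc+ cells numbered 112 and 111, against 1559 and 1046 Myc- cells. Only Idi1 of the 29 genes passed, and it was higher, where 16.6% of 10068 genes passed, 10.3% higher and 6.36% lower. Idi1 had 90.8 and 127 CPM in Myc+ cells, against 73.4 and 93.5 CPM in Myc- cells (0.41 ± 0.12, adjusted p = 0.0105, edgeR). Its value was higher in each library but the classes overlapped across libraries. The synthesis sum was 977 and 1156 CPM in Myc+ cells, against 904 and 1036 CPM in Myc- cells, a mean log2 ratio of 0.14. The efflux and storage sum was 26.7 and 21.4 CPM in Myc+ cells, against 31.9 and 25.6 CPM in Myc- cells, from 40 and 36 UMIs in Myc+ cells.

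The other estimates in Myc+ cells were wide. Mvd had 21.4 and 32.0 CPM in Myc+ cells, against 18.4 and 21.0 CPM in Myc- cells (0.47, 95% interval 0.08 to 0.85, adjusted p = 0.095, edgeR). Fdps had 179 and 227 CPM in Myc+ cells, against 158 and 190 CPM in Myc- cells (0.25, 0.04 to 0.45). Hmgcs1 had 133 and 135 CPM in Myc+ cells, against 113 and 122 CPM in Myc- cells (0.22, -0.00 to 0.45). These intervals include values as large as the zone differences of the same genes. Ggps1 had 20.7 and 17.8 CPM in Myc+ cells, against 27.1 and 25.6 CPM in Myc- cells (-0.43, -0.83 to -0.02). Scap had 25.4 and 23.1 CPM in Myc+ cells, against 18.9 and 18.4 CPM in Myc- cells (0.41, 0.01 to 0.81), and neither passed. Idi1 lost its call by DESeq2, without the library block, in both germinal center gates, at a limit of 10% mitochondrial UMIs and when Myc+ required 2 UMIs. Median depth was 8312 and 11509 UMIs in Myc+ cells, against 8133 and 8538 in Myc- cells. The median mitochondrial share of UMIs was 13.3% and 9.46% in Myc+ cells, against 13.3% and 13.2% in Myc- cells. The part of depth and mitochondrial share in the result was not tested.

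Other genes of lipid metabolism were described by 3 lists chosen with earlier results of these data known. Of 8 genes of LXR, uptake and lysosomal cholesterol, 7 were tested, and 6 were lower in G2/M-like than in G1-like cells with none higher, where 26.5% of all tested genes were lower. Apoe, a cholesterol acceptor and LXR target in macrophages, had 317 and 373 CPM in G2/M-like cells, against 899 and 998 CPM in G1-like cells (-1.42 ± 0.06). Npc2, the lysosomal partner of Npc1, and Mylip, which marks lipoprotein receptors for degradation, had -0.79 and -0.80. In S-like cells 6 were lower and 1 higher than in G1-like cells, where 27.5% of all tested genes were lower, the higher one being the lipoprotein receptor Scarb1, with 20.5 and 19.9 CPM in S-like cells, against 7.65 and 9.82 CPM in G1-like cells (1.31 ± 0.17). Apoe was also lower in IgG than in IgM cells (-0.54 ± 0.04) and in Myc+ than in Myc- cells (-0.60 ± 0.09). Between zones, Npc2 (0.34 ± 0.09) and Lpcat3, a phospholipid remodelling enzyme and LXR target, (0.33 ± 0.10) were the 2 that were higher in LZ cells.

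Of 11 fatty acid synthesis genes, 10 were tested between phases. In S-like cells 6 were higher and 1 lower than in G1-like cells, and in G2/M-like cells 5 were higher and 1 lower. Of all tested genes, 3083 of 10646 were higher in S-like and 28.0% in G2/M-like cells. In IgG over IgM cells 4 of the 10 were higher and none lower, where 5.87% of all genes were higher, with Fasn (0.27 ± 0.05), Scd2 (0.22 ± 0.05) and Elovl6 (0.37 ± 0.12) among them. Fasn, fatty acid synthase, had 70.1 and 69.0 CPM in S-like cells, against 32.1 and 31.8 CPM in G1-like cells (1.18 ± 0.10), and the desaturase Fads1 had 1.72 ± 0.21. Scd1, a desaturase, was the lower gene in both, with -0.67 ± 0.07 in S-like and -0.63 ± 0.07 in G2/M-like cells. Between zones 2 of the 10 were higher in LZ cells and 1 lower, where 15.5% of all genes were higher and 13.9% lower. Their log2 fold changes ran from -0.62 to 0.52, with a median of 0.03, and the highest was that of Scd1 (0.52 ± 0.06). Of 12 genes that use isoprenoids, 8 were higher and 1 lower in S-like cells, and 7 higher and 1 lower in G2/M-like cells, read against the same shares of all genes, with Pdss1, which builds the ubiquinone tail, at 1.24 ± 0.21 and 1.12 ± 0.20. Between zones 1 of the 12 passed, where 29.4% of all genes did, Nus1 of dolichol synthesis (0.22 ± 0.09, adjusted p = 0.0497, edgeR), and in IgG cells Rce1, a protease of prenylated proteins, was lower (-0.27 ± 0.08).

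Across 24 points (4 zone classes by 3 phases in 2 libraries), the non-members whose log2 CPM followed the synthesis sum most closely among 7349 genes with a mean of at least 10 CPM were Tpm3 (r = 0.91), Nudcd2 (0.90), G3bp1 (0.89), Dnaja1 (0.88) and Carnmt1 (0.88). The efflux and storage sum had r = -0.66 with the synthesis sum over the same points. The points share libraries, depth and phase differences, so these values are descriptions.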

How the data were processed

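Raw UMI counts per gene and cell barcode were made by the authors with Cell Ranger 3.0.2, per the file headers, on build mm10, per the submitters' processing notes, and deposited unnormalized; the annotation release and the rule for calling cells are not given in the sources used here. Cells were kept at 500 or more genes, 1000 or more UMIs and at most 20% mitochondrial UMIs. Each kept cell with 3400 or more UMIs was thinned to that number to call zones, Myc and phases (scanpy 1.11.5; 42 S and 52 G2/M genes), which left out 465 and 391 shallower cells in libraries 1 and 2. Isotype was called on unthinned counts, with at least 5 heavy-chain UMIs of which 80% had to be of 1 isotype. Raw counts were then summed per library and class and tested with edgeR 4.0.16 (R 4.3.3; quasi-likelihood, TMM scaling, filterByExpr, library as a block), with Benjamini-Hochberg adjustment over all tested genes and a threshold of 0.05. All 29 genes passed the filter in each comparison of 2 classes.

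Classes of 1 library share that library, and their deviations from the class means correlated with r from 0.28 to 0.59, so the library was kept as a block. Cells are not replicates: n is 2. Doublets were treated by leaving out the 6% of barcodes with most UMIs as an alternative, since Scrublet marked 0 barcodes and so did not work. Per-library values are given in full for called genes with a log2 fold change of at least 0.5 in size, or for the 6 with the smallest p where fewer are, and for related lists the called genes with the smallest p. The script was tested on simulated data. The members and lists were chosen with earlier results of these data known. DESeq2 1.42.0 and the other alternatives are described at the end.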

Additional observations from a re-analysis of the deposited data

How the results depend on the processing

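Counts of calls moved with the test, the library block and how classes and sums were made. With DESeq2, genes called fell to 810 for zone, 274 for isotype, 401 for Myc, 3135 for G2/M-like and 3089 for S-like against G1-like, 2162 for G2/M-like against S-like cells and 1 for zone by isotype, and members called to 7, 6, 0, 14, 10, 6 and 0. With no replicate block, which drops the pairing of classes by library, genes called were 360 for zone, 92 for isotype, 633 for Myc, 3700 for G2/M-like against G1-like, 1291 for G2/M-like against S-like cells and 0 for zone by isotype, and members called were 2, 0, 0, 17, 7 and 0. With sums of thinned counts, genes called were 1517 (zone, 8 members), 895 (isotype, 10), 307 (Myc, 1), 3900 (S-like against G1-like) and 3280 (G2/M-like against S-like, 8). No filter gave 21 genes for zone by isotype.

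Equal phase shares gave 1959 genes for zone and 973 for Myc. The light zone alone gave 712 genes for isotype. A mitochondrial limit of 10% gave 10 members for zone, 0 for Myc, 13 for G2/M-like and 11 for S-like against G1-like, and 3252 genes for G2/M-like against S-like cells, and a limit of 40% gave 3133 genes for isotype. For Myc, leaving out the barcodes with most UMIs gave 679 genes, the germinal center gate 798 (0 members), that gate without naive and memory UMIs 700 (0 members), at least 2 Myc UMIs 1056 (0 members) and unthinned classes 5012 (8 members).

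The log2 ratio of the synthesis sum minus that of the efflux and storage sum had no stable sign between zones. It was -0.31 as a median of fold changes, -0.027 with thinned sums, -0.23 with unthinned classes and -0.17 at both mitochondrial limits. It reversed to 0.0029 in the germinal center gate without naive and memory UMIs and to 0.16 at equal phase shares. For Myc it was 0.32 as a median, 0.83 with thinned sums, 0.52 and 0.63 in the 2 germinal center gates, 0.29 at equal phase shares, 0.63 with unthinned classes, 0.30 at both mitochondrial limits and reversed to -0.31 with at least 2 Myc UMIs. For G2/M-like against G1-like cells it was 2.50 as a median, 1.85 with thinned sums, 1.64 without the barcodes with most UMIs, 1.52 and 1.46 in the gates, 1.60 with another seed, and 1.63 and 1.65 at limits of 10% and 40%. For S-like against G1-like cells it was 1.88 as a median, 1.33 without the barcodes with most UMIs, 1.31 and 1.23 in the gates and 1.41 at 40%. For G2/M-like against S-like cells it was 0.41 with thinned sums, 0.31 without the barcodes with most UMIs and 0.094 with unthinned classes. In single libraries it ranged from 1.70 to 1.81 (G2/M-like against G1-like), 1.47 to 1.66 (S-like), 0.15 to 0.23 (G2/M-like against S-like), 0.24 to 0.47 (isotype), 0.37 to 0.42 (Myc) and -0.12 to -0.05 (zone).

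For G2/M-like against S-like cells, Idi1 reversed to 0.13 with thinned sums, 0.089 without the barcodes with most UMIs and 0.030 at a limit of 10%, and Dhcr7 to -0.020 with thinned sums. Among the other values of called genes under an alternative, calls were lost in 53 for zone, 50 for isotype, 34 for G2/M-like and 32 for S-like against G1-like cells. The remaining 187, 186, 287 and 233 values were neither weaker nor reversed. They include the values of single libraries, which have no call, so fewer calls than that were kept. The causes were not tested. A fit without 1 library leaves no replicate and was taken as a value only. With 2 libraries and 93 and 50 UMIs of Abcg1, small differences of efflux genes were not detectable at this depth. Intervals cover only counting error and the variation of the class differences between these libraries.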
